A study of Mus musculus with 8 samples.

Results

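The genes described here are 9 that defend cells against oxidants, free haem and free metal ions: Hmox1, Nqo1, Gclc, Gclm, Txnrd1, Srxn1, Mt1, Mt2 and Gpx4. They were chosen by symbol, and each matched 1 of the 31053 genes in the tables. Hmox1 encodes haem oxygenase 1, which breaks haem down to biliverdin, iron and carbon monoxide. Nqo1 encodes a quinone reductase. Gclc and Gclm encode the catalytic and modifier subunits of glutamate-cysteine ligase, the rate-limiting enzyme of glutathione synthesis. Txnrd1 encodes the cytosolic thioredoxin reductase, and Srxn1 encodes sulfiredoxin, which repairs over-oxidised peroxiredoxins. Mt1 and Mt2 encode metallothioneins, small cysteine-rich proteins that bind zinc and copper. Gpx4 encodes the glutathione peroxidase that reduces lipid peroxides in membranes and so holds back ferroptosis, an iron-dependent form of cell death.

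As background, most of these genes answer to the transcription factor NRF2 (gene Nfe2l2), which KEAP1 keeps low until oxidants or electrophiles arrive. Hmox1 is also held down by BACH1 until haem rises, the metallothionein genes answer to zinc through MTF1, and ATF4, the factor deleted in these hosts, drives amino acid and cystine supply. Macrophages that take up dying cells or red cells are known for high Hmox1.

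The samples were 8 B16F10 mouse melanomas grown subcutaneously in the flank, each collected at 300 mm3 and read as 1 droplet library of single cells. Of these, 4 tumours came from Atf4wt/wt mice (2 male, 2 female) and 4 from Atf4D/D mice (3 male, 1 female), all 12 weeks old by the labels. Both genotypes were C57BL/6, carried the Rosa26::CreERT2 allele and received tamoxifen by oral gavage, and in the Atf4D/D hosts Cre removes exons 2 and 3 of Atf4 in the whole animal. The B16F10 cells, 1 line, carry Atf4 in both hosts, so only host cells differ in genotype.

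Each library held 4231 to 8696 cell barcodes and 37283598 to 74942137 UMIs (unique molecular identifiers, each counting 1 captured RNA molecule). Of 41925 barcodes, 28170 were kept, and 199 barcode sequences occurred in more than 1 library. The kept cells comprised 23720 melanoma-like cells, 729 CAF-like cells (fibroblasts of the tumour), 284 TAM-like cells (macrophages), 432 further immune cells that were left unnamed, 97 T/NK-like, 85 dendritic-like and 36 endothelial-like cells, and 2787 cells of low UMI count that were left unnamed. The targeted gene Atf4 read 278 to 323 CPM (UMIs of the gene per 1000000 UMIs of a class in a tumour) in the CAF-like cells of Atf4wt/wt hosts and 90.1 to 171 CPM in those of Atf4D/D hosts. It was lower in Atf4D/D CAF-like cells by the quasi-likelihood test of edgeR (log2 fold change -1.30 ± 0.20 SE, adjusted p = 0.0374) and in all immune cells pooled (adjusted p = 0.0334, the only call there, 0.0306% of genes), while in TAM-like cells the groups overlapped (log2 fold change -1.03, adjusted p = 0.130). The CAF-like call was lost without any of the 4 Atf4wt/wt tumours or without Atf4D/D replicate 2 or 4 (adjusted p of up to 0.409), at log2 fold changes of -1.52 to -1.12 over all 8 omissions. In melanoma-like cells the log2 fold change of Atf4 was 0.03. Melanoma RNA in host sums, described below, also holds Atf4. In CAF-like cells with fewer than 3 melanoma marker UMIs per 1000 it averaged 285 CPM in Atf4wt/wt and 104 CPM in Atf4D/D hosts (adjusted p = 0.126, edgeR). In such TAM-like cells it averaged 181 and 71.8 CPM, with groups that overlap. The part of melanoma RNA in the Atf4 values was not tested.

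Promoter sequence is shown for the 4 members whose window holds the motif of the factor that the gene is known to answer to. The windows are the 250 bases before a RefSeq transcript start in GRCm38.p6, written 5′ to 3′ on the gene's strand, and 7 of the 9 members had at least 1 window, 12 in all. In the metallothionein windows the capitals mark TGCNCNC on either strand. These letters are wider than the metal response element core, TGCRCNC, in which R is A or G. Mt2 lies at chr8:94172664-94173568 on the plus strand and Mt1 follows it at chr8:94179082-94180327.
Mt2, chr8:94172368-94172617: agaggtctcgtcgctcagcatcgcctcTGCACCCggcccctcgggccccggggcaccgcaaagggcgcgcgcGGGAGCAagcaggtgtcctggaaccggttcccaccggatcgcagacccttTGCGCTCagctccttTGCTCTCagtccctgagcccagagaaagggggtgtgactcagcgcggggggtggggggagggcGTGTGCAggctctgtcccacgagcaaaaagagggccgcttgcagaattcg
Mt1, chr8:94178839-94179088: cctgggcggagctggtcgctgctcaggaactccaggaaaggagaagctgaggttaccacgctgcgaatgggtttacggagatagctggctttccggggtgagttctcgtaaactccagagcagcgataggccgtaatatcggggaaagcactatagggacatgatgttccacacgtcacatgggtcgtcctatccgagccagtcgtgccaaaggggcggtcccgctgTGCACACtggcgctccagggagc
The Mt2 window held 5 such cores, whose first bases lie 223, 178, 128, 113 and 50 bases before the start, and the Mt1 window held 1, at 23 bases before it. The Mt1 window ends at 94179088, past its gene start at 94179082, while the Mt2 window ends at 94172617, before its gene start at 94172664. The 2 counts thus come from windows placed unlike against their genes. At least 1 match of TGCNCNC occurred in 44.4% of 32841 RefSeq windows of the same length, so its presence sets neither gene apart. In the next pair of windows the capitals mark the antioxidant response element core, TGACNNNGC, on either strand.
Gclm, chr3:122245307-122245556: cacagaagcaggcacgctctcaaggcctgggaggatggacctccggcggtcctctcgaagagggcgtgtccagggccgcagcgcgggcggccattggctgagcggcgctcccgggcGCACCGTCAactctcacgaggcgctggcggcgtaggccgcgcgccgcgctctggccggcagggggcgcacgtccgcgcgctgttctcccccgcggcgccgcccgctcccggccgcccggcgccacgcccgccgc
Txnrd1, chr10:82858956-82859205: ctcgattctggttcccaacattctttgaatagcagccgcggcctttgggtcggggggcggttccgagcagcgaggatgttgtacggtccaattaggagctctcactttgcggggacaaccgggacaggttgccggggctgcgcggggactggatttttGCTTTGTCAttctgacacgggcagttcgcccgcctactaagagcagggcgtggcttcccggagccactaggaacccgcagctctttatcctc
Each held 1 such core, 134 and 92 bases before the start, and the Txnrd1 window is the second of 3 for that gene. Among all windows 10.2% held this core. Among the 12 windows of the members 3 held it, the third being that of Mt2, and 10 held TGCNCNC. Hmox1 and Gclc had no window. A matched motif is a description of the letters and not a site of binding.

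Among the named classes Hmox1 was highest in the macrophages. The gene lies at chr8:75093621-75100589 on the plus strand of GRCm38 and is protein-coding, as are the other members. In TAM-like cells Hmox1 read 447, 273 and 530 CPM in Atf4wt/wt replicates 1, 3 and 4, and 2231, 828, 763 and 1023 CPM in Atf4D/D replicates 1 to 4. In CAF-like cells it read 174, 61.5, 137 and 161 CPM in Atf4wt/wt tumours and 179, 146, 98.0 and 218 CPM in Atf4D/D tumours. In melanoma-like cells it read 101, 107, 120 and 181 CPM and 184, 162, 122 and 143 CPM in the same order. Every TAM-like value thus lay above every CAF-like and melanoma-like value, whereas the latter classes overlapped. Hmox1 was 5.75-fold higher in TAM-like than in melanoma-like cells (95% interval 4.31 to 7.67, higher in 7 of 7 tumours, adjusted p = 1.20e-11) and 4.67-fold higher than in CAF-like cells (3.395 to 6.43, 7 of 7 tumours, adjusted p = 1.83e-09), from edgeR, with the tumour entered as a block. Between CAF-like and melanoma-like cells the ratio was 1.23 (0.925 to 1.64, adjusted p = 0.191). The replicate 2 Atf4wt/wt tumour had only 2 TAM-like cells, under the minimum of 10, and was left out of every TAM-like test; those 2 cells held 6 Hmox1 UMIs, 1017 CPM.

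**Figure D1:**
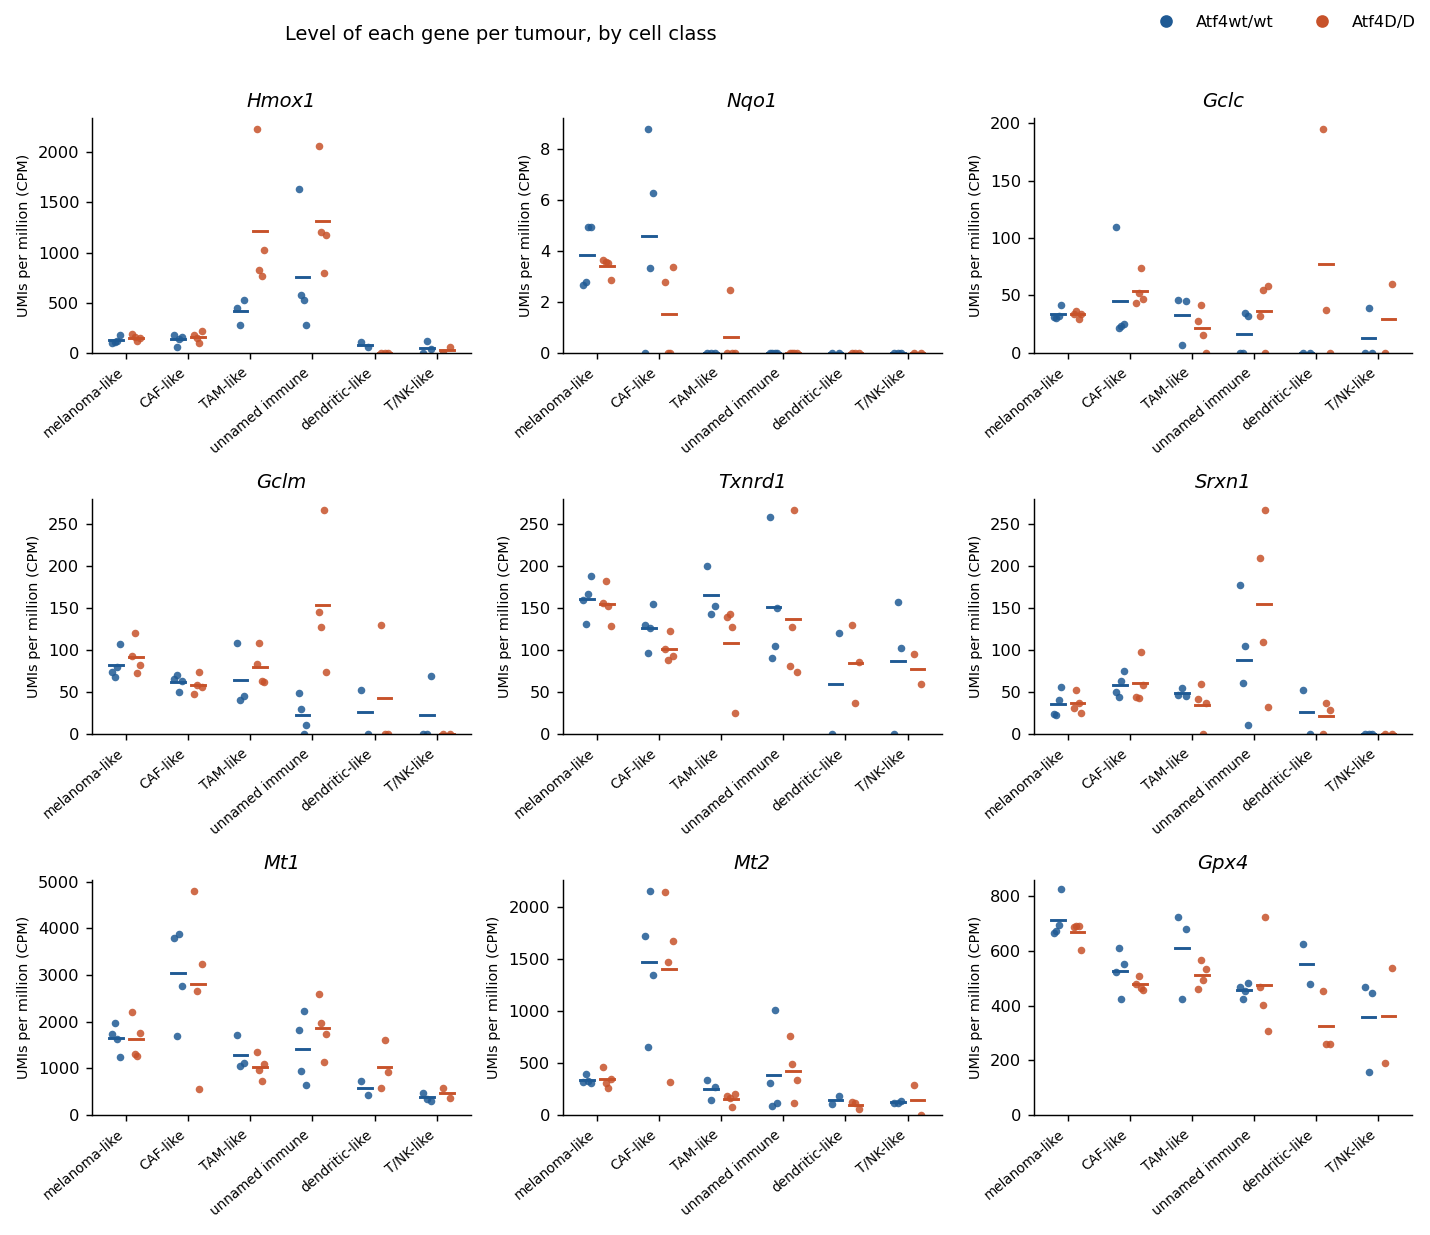
Level in CPM (vertical axes, linear from 0) of each of the 9 genes by cell class; a point is 1 tumour with at least 10 cells of the class, blue for Atf4wt/wt and orange for Atf4D/D hosts, and the bar is the mean of the group. Hmox1 stands highest in TAM-like and unnamed immune cells, Mt1 and Mt2 in CAF-like cells, and Nqo1 stays under 9 CPM in every class plotted.

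The metallothionein genes were highest in fibroblasts. Mt2 read 1725, 651, 2150 and 1343 CPM in CAF-like cells of Atf4wt/wt replicates 1 to 4 and 2146, 1472, 318 and 1677 CPM in those of Atf4D/D replicates 1 to 4. In melanoma-like cells it read 310 to 399 CPM and 260 to 460 CPM in Atf4wt/wt and Atf4D/D tumours, and in TAM-like cells 143 to 339 CPM and 79.5 to 200 CPM. In each tumour the CAF-like cells exceeded the melanoma-like cells. Mt2 was 4.64-fold higher in CAF-like than in melanoma-like cells (95% interval 3.56 to 6.05, 8 of 8 tumours, adjusted p = 1.78e-11, edgeR), and TAM-like cells held 0.129 times the CAF-like level (adjusted p = 3.56e-11) and 0.598 times the melanoma-like level (adjusted p = 0.0184, and 0.0883 without Atf4D/D replicate 2). The lowest CAF-like value, 318 CPM, came from Atf4D/D replicate 3, which had 10 CAF-like cells.

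By level Mt1 followed the same order with smaller ratios. It averaged 2927 ± 1335 CPM (SD, n = 8) in CAF-like cells, 1639 ± 348 CPM in melanoma-like cells and 1147 ± 314 CPM (n = 7) in TAM-like cells. CAF-like cells were 1.95-fold above melanoma-like cells (1.53 to 2.49, adjusted p = 1.66e-05, edgeR), but in 6 of 8 tumours only. TAM-like cells held 0.377 times the CAF-like level (adjusted p = 5.11e-07), and their ratio to melanoma-like cells, 0.736, missed the threshold (adjusted p = 0.0626). It passed in the TAM-like cells with few melanoma UMIs (adjusted p = 0.00299), and without Atf4wt/wt replicate 1 (0.0343) or Atf4D/D replicate 3 (0.0211).

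The genes of the glutathione and thioredoxin systems differed less between classes. Srxn1 was 1.88-fold higher in CAF-like than in melanoma-like cells (7 of 8 tumours, adjusted p = 1.70e-05, edgeR), at 59.7 ± 19.2 and 36.0 ± 12.8 CPM (SD, n = 8). Gclc was 1.61-fold higher (5 of 8 tumours, adjusted p = 0.00428), at 49.4 ± 29.9 and 33.6 ± 3.97 CPM. Gclc in CAF-like cells read 109 CPM in Atf4wt/wt replicate 1, 22.0 to 25.2 CPM in the other Atf4wt/wt tumours, which lay under their melanoma-like cells, and 43.1 to 73.5 CPM in the Atf4D/D tumours, which lay above theirs. Without Atf4wt/wt replicate 1 the log2 difference was 0.41 and the call was lost (adjusted p = 0.0585). Gclm and Txnrd1 went the other way and were lower in CAF-like cells, at 0.754 times (adjusted p = 0.00807) and 0.820 times (adjusted p = 0.0266) the melanoma-like level. So was Gpx4, at 0.830 times (adjusted p = 0.0106), with 503 ± 59.5 CPM in CAF-like and 692 ± 61.9 CPM in melanoma-like cells and no tumour in which CAF-like cells were higher. None of the 3 changed direction with other scaling factors, but the Txnrd1 call was lost with relative log expression factors (adjusted p = 0.0516) and without Atf4wt/wt replicate 2 (0.0844), Atf4D/D replicate 1 (0.0521) or Atf4D/D replicate 2 (0.183), and the Gclm call without Atf4D/D replicate 2 (0.0539).

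Counted over the list, 4 members rose and 3 fell in CAF-like against melanoma-like cells among the 8 tested, where 65.9% of all 6324 genes tested were called, 32.8% higher and 33.1% lower. The median log2 difference of the members was 0.49, against -0.04 for all genes. In TAM-like against melanoma-like cells 1 member (Hmox1) was called higher and 1 (Mt2) lower, against 44% of all genes called (21.7% higher, 22.3% lower). Without scaling factors it was 1 higher and 3 lower, with Mt1 and Gpx4 added, and the share of all genes called was not counted there. In TAM-like against CAF-like cells 1 (Hmox1) was higher and 2 (Mt1 and Mt2) lower, against 40.7% called (18.7% higher, 22% lower). Gclc, Gclm, Txnrd1, Srxn1 and Gpx4 were not called in either TAM-like comparison.

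**Figure D2:**
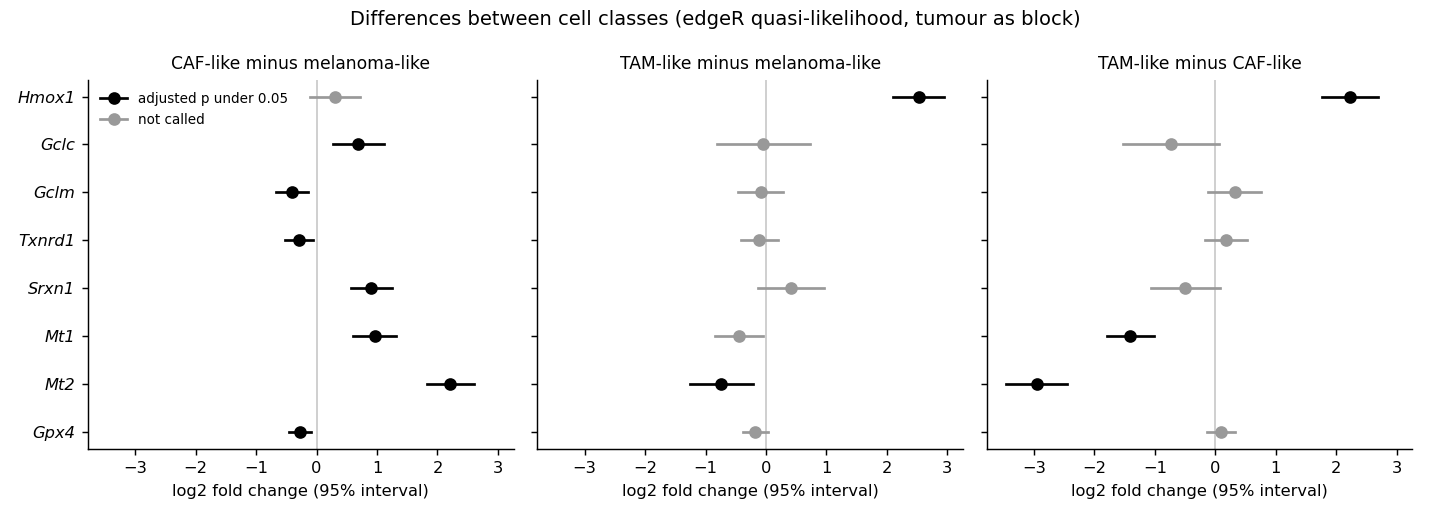
Log2 fold change with its 95% interval (horizontal axes) of the 8 members tested between CAF-like, TAM-like and melanoma-like cells, from edgeR with the tumour as a block; black points have an adjusted p under 0.05 and grey points do not. Hmox1 lies to the right in both TAM-like panels, at 2.52 and 2.22, and Mt2 lies at 2.21 in the CAF-like panel and at -2.96 between TAM-like and CAF-like cells.

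Nqo1 had few UMIs. Melanoma-like cells held 895 Nqo1 UMIs in all, 2.67 to 4.96 CPM per tumour with a mean of 3.62 CPM. CAF-like cells held 12 UMIs and the pooled immune cells 1 UMI, in Atf4D/D replicate 2. The endothelial-like cells of the 1 Atf4wt/wt tumour with enough of them held 1 UMI, 20.3 CPM. The gene did not pass the filter on low counts outside melanoma-like cells, so no class comparison was made for it.

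Because a droplet also captures RNA from broken cells, the UMIs of melanoma marker genes (Pmel, Dct and 8 others) in each host class were set against the melanoma-like cells of the same tumour. CAF-like sums carried 7.17 to 31.6% of the melanoma-like marker level, and TAM-like sums 6.09 to 62.8%. If every gene came in at that rate, melanoma RNA would bring 39.2 CPM of Hmox1 into TAM-like cells, where 871 CPM were measured. It would bring 70.6 CPM of Mt2 into CAF-like cells, where 1435 CPM were measured. For Gclm, Txnrd1 and Gpx4 in CAF-like cells the measured level was 3.42 to 3.62 times the level brought in. In TAM-like cells it was 2.13 times for Mt2, 2.57 for Mt1, 2.67 for Gclc, 2.78 for Gpx4, 2.81 for Txnrd1, 2.86 for Gclm and 3.78 for Srxn1. The part of melanoma RNA in those values was not tested. These shares were not subtracted from any value.

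Within the immune cells Hmox1 varied by subcluster. It was highest, at 2245 CPM over all tumours pooled, in a subcluster of 146 cells whose leading genes were the interferon-response genes Ifit1 and Rsad2, then Mmp12 and Arg1, a matrix metalloproteinase and arginase of macrophages, and, lower in the list, Slc2a1 and Vegfa, which are known to rise in hypoxia. These cells are part of the unnamed immune class. The main TAM-like subcluster of 208 cells read 1101 CPM, and it stood above the former in Atf4D/D replicate 1 (3054 against 2760 CPM) and Atf4D/D replicate 3 (1011 against 886 CPM, the latter from 7 cells). A TAM-like subcluster of 76 cells led by Cenpf and other genes of cell division read 396 CPM. In it 82.9% of cells held a UMI of the melanoma marker Dct, against 55.3% in the main TAM-like subcluster, at median depths of 4474 and 2514 UMIs, and the part of melanoma RNA or doublets in its values was not tested. A subcluster of 286 cells led by Chil3, Ly6c2 and Ccr2, genes of monocytes, read 301 CPM. T/NK-like cells read 65.4 CPM from 7 UMIs, and the dendritic-like subclusters held 3 UMIs between them. The subcluster with Mmp12 and Arg1 also stood highest among immune subclusters for Mt1 at 2671 CPM, Mt2 at 726 CPM, Gclm at 148 CPM and Srxn1 at 161 CPM. Only 5 tumours had 10 or more of its cells, and Hmox1 read 1948 and 1150 CPM in the Atf4wt/wt and 2760, 1763 and 3473 CPM in the Atf4D/D tumours among them.

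The share of cells with at least 1 UMI was also taken after each cell was thinned to 1500 UMIs. Hmox1 was then seen in 48.1 ± 19.7% of TAM-like cells (SD over 7 tumours), 16.8 ± 3.18% of melanoma-like cells and 13.1 ± 5.84% of CAF-like cells (n = 8 each), so that melanoma-like and CAF-like cells stood in the other order than by the ratio of their levels. Before thinning the shares were 68.2, 56.2 and 32.8%, with median depths of 2939, 10304 and 4585 UMIs. As a background, 3.34% of T/NK-like cells, at a median of 789 UMIs, held a Hmox1 UMI unthinned. Mt2 was seen in 59.4 ± 20.01% of CAF-like, 36.6 ± 4.46% of melanoma-like and 19.8 ± 5.07% of TAM-like cells after thinning. Mt1 was seen in 76.5 ± 9.77% of CAF-like, 82.8 ± 5.08% of melanoma-like and 65.8 ± 8.50% of TAM-like cells. For Mt1, too, CAF-like and melanoma-like cells thus stood in the other order than by level. Nqo1 was seen in 0.450% of melanoma-like cells. Thinning left out 39 CAF-like, 29 TAM-like and 42 melanoma-like cells of lower depth.

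The other 66 genes of the listed pathways were tested in the same fits. The lists were chosen with earlier results of these data known. In the haem and iron list all 7 tested were called higher in TAM-like than in CAF-like cells, against 18.7% of all genes. The median log2 difference was 1.81 (all genes -0.00). Against melanoma-like cells 6 of 7 were called higher, where 21.7% of all genes were (median 1.49, all genes -0.11). As examples chosen after their values were seen, the ferritin chains Fth1 and Ftl1, which store iron, averaged 16486 and 12244 CPM in TAM-like cells, 3776 and 3059 CPM in CAF-like cells, and 6302 and 6710 CPM in melanoma-like cells. Biliverdin reductase Blvrb averaged 306 CPM in TAM-like, 110 CPM in CAF-like and 54.1 CPM in melanoma-like cells. Blvra, the other biliverdin reductase, was among the 3 pathway genes with the largest rise from CAF-like to TAM-like cells, 31.7 to 168 CPM. In CAF-like against melanoma-like cells 2 of the 7 haem and iron genes were higher and 5 lower, among them Tfrc, the transferrin receptor, at 45.5 against 122 CPM.

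In CAF-like against melanoma-like cells 3 of 6 tested regulators were higher and 2 lower, against 32.8 and 33.1% of all genes, and in TAM-like against melanoma-like cells 3 were higher and 1 lower, against 21.7 and 22.3%. Atf4, which is deleted in the Atf4D/D hosts and not in the melanoma cells, was among the lower genes in both. Chosen after their values were seen, Nfe2l2 averaged 134 CPM in CAF-like, 172 CPM in TAM-like and 81.2 CPM in melanoma-like cells. Bach1 averaged 81.9, 65.3 and 21.1 CPM in the same order. The list of quinone and lipid genes was called higher in CAF-like than in melanoma-like cells for 4 of 4 tested, against 32.8% of all genes (median log2 difference 1.76). Over all pathway genes other than the members, 23 were higher and 20 lower of 55 tested in CAF-like against melanoma-like cells, 24 and 10 in TAM-like against melanoma-like cells, and 19 and 16 in TAM-like against CAF-like cells.

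The largest pathway differences were genes nearly confined to 1 class. Gpx7 and Gpx3, secretory-pathway and plasma glutathione peroxidases, averaged 122 and 437 CPM in CAF-like cells against 0.047 and 0.202 CPM in melanoma-like cells. Sod3, the extracellular superoxide dismutase, averaged 222 against 2.14 CPM and had no UMI in any TAM-like sum. Cybb and Ncf1, subunits of the oxidant-producing NADPH oxidase of phagocytes, averaged 143 and 49.6 CPM in TAM-like cells against 0.141 and 0.659 CPM in melanoma-like cells. On the other side, Gsta4, a glutathione transferase, averaged 134 CPM in melanoma-like cells and 25.9 and 24.4 CPM in CAF-like and TAM-like cells. Chac1, which degrades glutathione and is known as an ATF4 target, averaged 28.4, 6.93 and 7.38 CPM in the same order, and Gstp1 146, 47.5 and 37.5 CPM.

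Melanoma-like cells fell into 10 clusters made without the members or the pathway genes, and the members varied across them. Cluster levels are described without a test because the clusters were cut from the same cells. Hmox1 was highest in cluster 3, led by Fgf21 and Cdsn, with 365 CPM over all tumours. It was lowest in cluster 6, led by the S-phase genes Cdc6 and Mcm4, with 71.3 CPM, a ratio of 5.12. In cluster 3 Hmox1 read 256, 320, 273 and 395 CPM in Atf4wt/wt replicates 1 to 4 and 479, 399, 396 and 432 CPM in Atf4D/D replicates 1 to 4, and it was the highest cluster in 8 of 8 tumours. Cluster 1, led by Nppb, Pgf and Car9, came next with 203 CPM.

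Cluster 3 was also the highest for Srxn1, Gpx4, Gclm and Nqo1. Srxn1 read 101 CPM there and 18.7 CPM in cluster 4, a ratio of 5.41, with cluster 3 on top in 7 of 8 tumours. Gpx4 read 886 CPM there and 595 CPM in cluster 1, a ratio of 1.49, on top in 8 of 8 tumours. Gclm read 115 against 73.6 CPM and Nqo1 6.01 against 2.57 CPM, with cluster 3 on top in 5 and 4 of 8 tumours. Cluster 3 carried the highest summed level of 8 stress-response genes (Ddit3, Trib3, Chac1 and others), 5117 CPM against 1693 CPM in the next cluster, and the lowest sum of 6 pigment genes, 10917 CPM. Fgf21, Trib3 and Chac1 are known targets of ATF4, which these melanoma cells carry in both hosts.

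The metallothionein genes had another order. Mt1 was highest in cluster 1, at 3136 CPM, in 8 of 8 tumours (2303 to 3660 CPM), and lowest in cluster 13, at 986 CPM, a ratio of 3.18. Mt2 read 604 CPM in cluster 1, 602 CPM in cluster 14 and 201 CPM in cluster 13. Clusters 1 and 14 were the top pair for Mt1 and Mt2 and also for the summed level of 10 hypoxia genes (Car9, Bnip3, Adm and others), 6947 and 6243 CPM against 4330 CPM in cluster 3. Txnrd1 was highest in cluster 5, led by the S-phase gene Ccne2, at 190 CPM and lowest in cluster 1 at 115 CPM. Gclc ranged from 24.7 CPM in cluster 0 to 45.2 CPM in cluster 14.

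**Figure D3:**
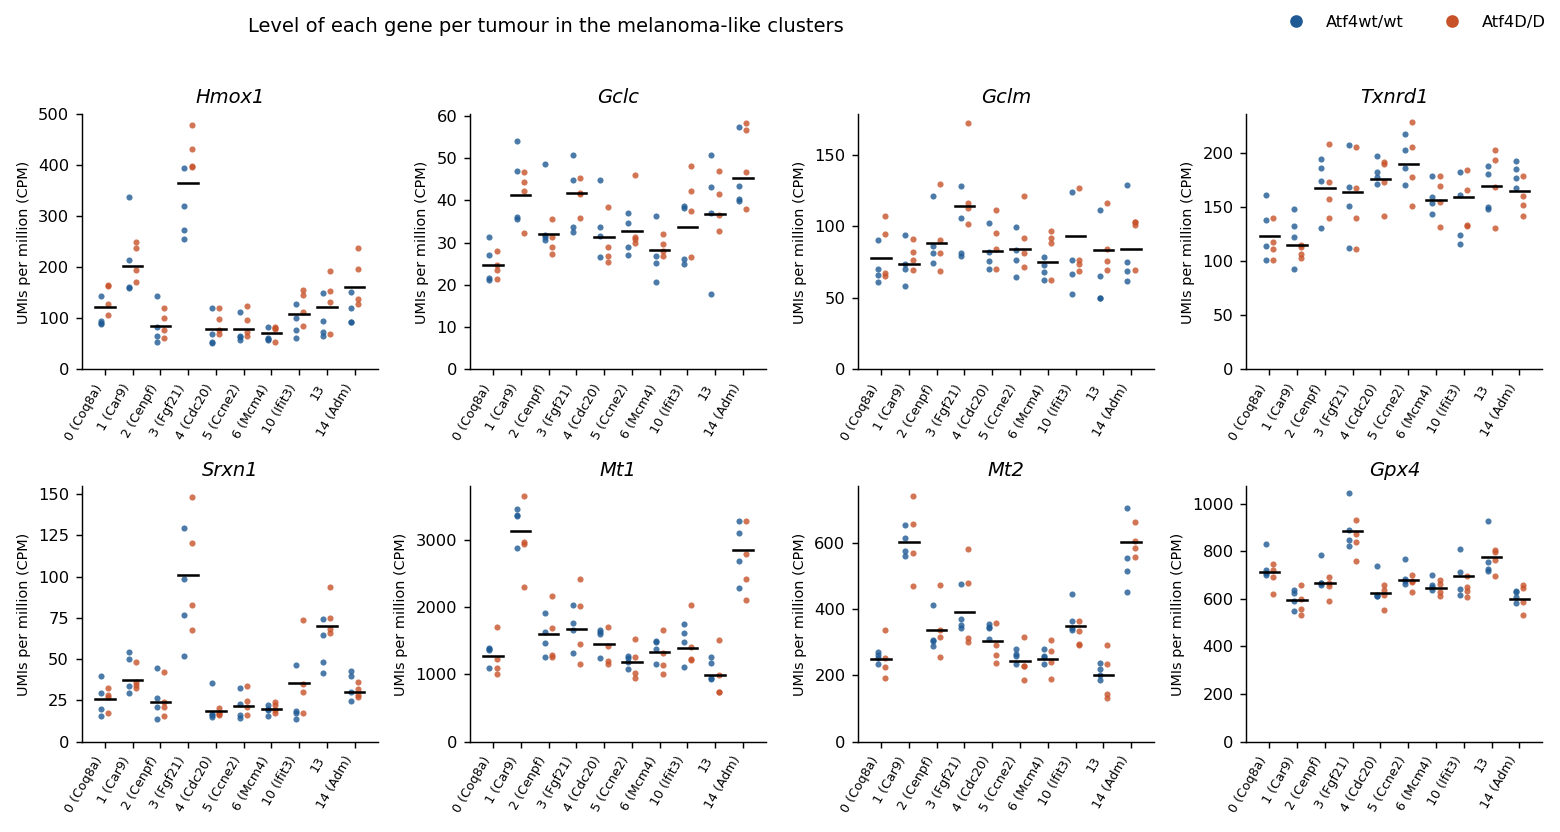
Level in CPM (vertical axes, linear from 0) of 8 members in the 10 melanoma-like clusters, each named by its number and, for all but cluster 13, a leading gene; a point is 1 tumour, blue for Atf4wt/wt and orange for Atf4D/D hosts, and the bar is the value over all tumours pooled. Cluster 3 (Fgf21) stands highest for Hmox1, at 365 CPM, and for Srxn1, and clusters 1 (Car9) and 14 (Adm) for Mt1, at 3136 and 2855 CPM, and Mt2.

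Across the 22 clusters and subclusters of all cells, Mt1 and Mt2 had the most similar pattern to each other of 9732 genes compared, with Pearson's r = 0.90 for log2(CPM + 1). Across the 10 melanoma-like clusters their r was 0.97. The genes most like Hmox1 were Cbr2 (r = 0.88), Ctsa (0.86) and Mfsd12 (0.85), and those most like Gclm were Vat1 (0.90), Osgin1 (0.89) and Vipas39 (0.89). Echs1 (0.91), Plin3 (0.91) and Ift43 (0.90) were most like Gpx4, and Bnip3 (0.87) and Fam162a (0.85) followed Mt2 for Mt1. For Mt2 they were Mt1, Pkdcc (0.83) and Ncam1 (0.82), for Txnrd1 Myo5a (0.86), Inpp5f (0.86) and Gtf3c4 (0.86), for Gclc Pnpla6 (0.79), Dusp16 (0.78) and Ttc17 (0.78), and for Srxn1 Tspyl1 (0.75), Idua (0.73) and Tnfaip2 (0.73). Hmox1 and Srxn1 had r = 0.82 across the melanoma-like clusters. Clusters share libraries and differ in depth, so these values describe the pattern only.

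Host genotype was compared with the tumour as the unit, in each class. In CAF-like cells none of the 8 members tested was called, where 0.0431% of 4637 genes were. The range of adjusted p over them was 0.752 to 0.999 (edgeR), and 1 of the 8 had an unadjusted p under 0.05, against 6.51% of all genes. That gene was Txnrd1, with 130, 96.7, 127 and 154 CPM in Atf4wt/wt and 101, 87.8, 122 and 93.5 CPM in Atf4D/D tumours, a log2 fold change of -0.39 ± 0.18 SE with groups that overlap. Hmox1 had a log2 fold change of 0.42 ± 0.26 SE (95% interval -0.14 to 0.97, adjusted p = 0.877), and intervals of Mt1, Mt2 and Gclc were wider. Atf4 itself was the pathway gene called in CAF-like cells.

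In melanoma-like cells all 9 members were tested and none was called, where 0.0319% of 12557 genes were. None had an unadjusted p under 0.05, against 11.3% of all genes. Hmox1 had a log2 fold change of 0.23 ± 0.18 SE (-0.17 to 0.63, adjusted p = 0.662). Within the 10 clusters, 86 tests of members gave no call, where 0.0934% of all tests were called, and 8 had an unadjusted p under 0.05, against 8.42% of all tests. Of those 8, 5 were Hmox1, in clusters 0, 3, 10, 13 and 14, and its log2 fold change was above 0 in 10 of 10 clusters (0.03 to 0.57), with adjusted p of 0.305 or more. Without the filter on low counts, 4 of these tests were called: Hmox1 in clusters 0, 3 and 14 and Srxn1 in cluster 10, where 0.732% of all tests without that filter were called. Clusters of the same tumour are not independent of each other.

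In TAM-like cells Hmox1 was the member that differed most between hosts. The 3 Atf4wt/wt tumours read 273 to 530 CPM and the 4 Atf4D/D tumours 763 to 2231 CPM, so the groups did not overlap, as for 17.4% of the 1964 genes tested (7.54% with Atf4D/D higher). The log2 fold change was 1.55 ± 0.35 SE (95% interval 0.82 to 2.28), with an unadjusted p of 0.000373 and an adjusted p of 0.0564 by edgeR, which missed the threshold. It passed under 6 of 17 alternatives, with DESeq2 at 0.00349 and with sex as a covariate at 0.0309. Among the 6 was a block on replicate numbers, which did not pair the tumours. The share of all genes called was not counted under those alternatives. In the main test none of the 5 members tested was called, where 0.56% of genes were. The 2 TAM-like cells of Atf4wt/wt replicate 2, at 1017 CPM, lay within the Atf4D/D range. The other 4 members tested had adjusted p of 0.313 to 0.673. Txnrd1 read 200, 143 and 153 CPM in Atf4wt/wt tumours and 139, 143, 127 and 24.9 CPM in Atf4D/D tumours, groups that met at 143 CPM without overlapping, as for 9.88% of genes with Atf4D/D lower, and a log2 fold change of -0.48 (adjusted p = 0.505). Mt2 had a log2 fold change of -0.62 (adjusted p = 0.313).

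Other RNA moved with this comparison. The melanoma marker level in TAM-like sums was 62.8, 31.8 and 40.1% of that of melanoma-like cells in Atf4wt/wt tumours and 7.90, 27.3, 6.09 and 23.7% in Atf4D/D tumours. The summed level of the 11 TAM markers was 14306 to 26163 CPM in Atf4wt/wt and 32062 to 39484 CPM in Atf4D/D tumours, without overlap. CAF markers summed to at most 49.9 CPM, and all 6 erythroid markers, haemoglobin genes among them, were at 0 in every TAM-like sum. The TAM-like subcluster led by Cenpf, of lower Hmox1, held 98807 of 129732, 69505 of 146429 and 62343 of 111392 TAM-like UMIs in Atf4wt/wt tumours. In Atf4D/D tumours it held 25562 of 71726, 156659 of 404643, 24338 of 62926 and 27064 of 80188. The part of this mix in the Hmox1 difference was not tested. When cells with 3 or more melanoma marker UMIs per 1000 were left out, the melanoma marker level was 5.28 to 6.42% in every tumour. Hmox1 then read 501, 341 and 698 CPM against 2431, 1072, 763 and 1082 CPM, still without overlap (4.31% of 1114 genes with Atf4D/D higher), with a log2 fold change of 1.43 and an adjusted p of 0.201, where 0.0898% of genes were called. The TAM marker sum in those cells was 26331 to 36541 CPM against 37000 to 49235 CPM, and its part in the Hmox1 difference was not tested. For Mt2 the log2 fold change in those cells was 0.11.

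Groupings of the immune cells that share cells with the TAM-like class gave Hmox1 values in the same direction. Dendritic-like cells read 59.9 and 104 CPM in 2 Atf4wt/wt tumours, from 3 UMIs, and 0 in 3 Atf4D/D tumours. In T/NK-like cells Hmox1 averaged 50.7 CPM over 3 Atf4wt/wt tumours, from 4 UMIs, and 29.9 CPM over 2 Atf4D/D tumours, from 1 UMI. In the main TAM-like subcluster alone it read 485, 416 and 816 CPM against 3054, 1065, 1011 and 1261 CPM (log2 fold change 1.5, adjusted p = 0.193, 0.123% of genes called), without overlap, as for 3.82% of 812 genes with Atf4D/D higher. In all immune cells pooled, which takes in the fourth Atf4wt/wt tumour, it read 707, 523, 282 and 348 CPM against 1805, 814, 777 and 952 CPM, with no overlap, as for 6.46% of 3267 genes (2.6% with Atf4D/D higher) (log2 fold change 1.25, adjusted p = 0.285). Such pooling mixes subclusters of unlike Hmox1 level in shares that differed between tumours. The subcluster led by Chil3 and Ly6c2, of low Hmox1, made up 16 of 103, 17 of 36, 13 of 88 and 90 of 150 immune cells in Atf4wt/wt tumours. In Atf4D/D tumours it made up 16 of 80, 17 of 186, 7 of 35 and 110 of 220. The part of this mix in the pooled values was not tested. In the unnamed immune cells the groups overlapped, at 280 to 1637 CPM against 800 to 2068 CPM (adjusted p = 0.827, 0% of 906 genes called). Gclm did not pass the filter there. It had 0 to 3 UMIs in each Atf4wt/wt tumour (0 to 48.6 CPM) and 7 to 14 UMIs in each Atf4D/D tumour (73.9 to 267 CPM), values that do not overlap. Of the genes that passed the filter, a set without Gclm, 3.31% did not overlap in either direction. The subcluster with Mmp12 and Arg1, highest for Gclm, made up 27 of 43, 10 of 27, 9 of 22 and 5 of 95 unnamed immune cells in Atf4wt/wt tumours. In Atf4D/D tumours it made up 22 of 38, 20 of 37, 7 of 14 and 46 of 156, and its part was not tested. In all immune cells Gclm read 79.1, 20.9, 29.2 and 32.0 CPM against 107, 104, 120 and 59.1 CPM, with groups that overlap (adjusted p = 0.363).

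**Figure D4:**
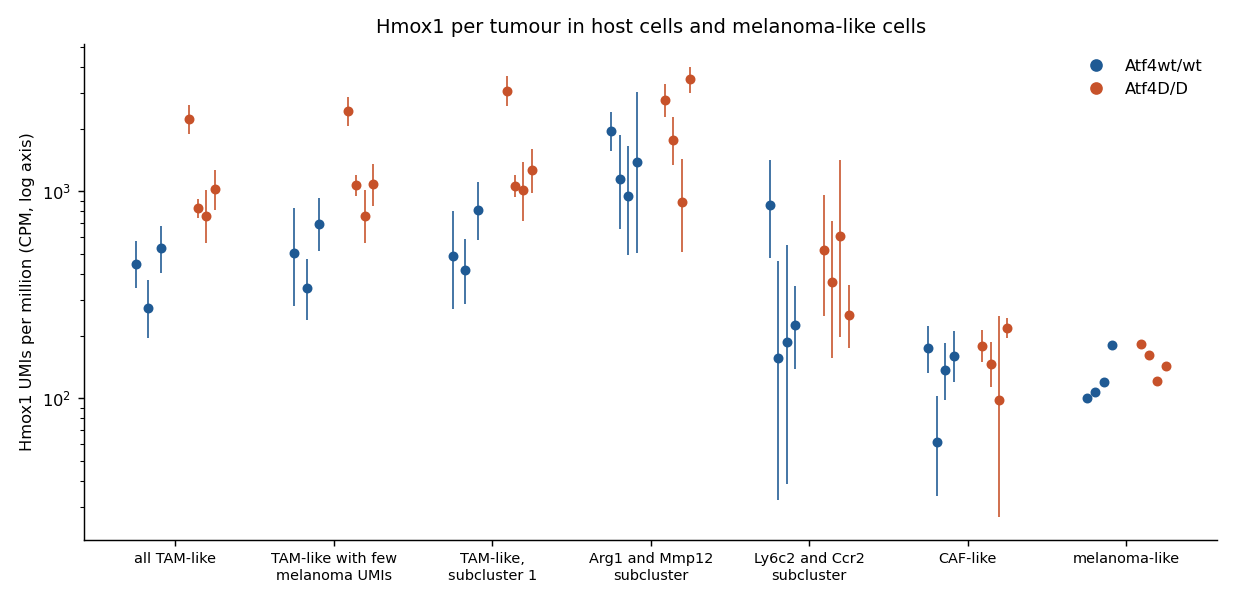
Hmox1 level in CPM (vertical axis, logarithmic) per tumour in all TAM-like cells, TAM-like cells with few melanoma UMIs, the main TAM-like subcluster, the Arg1 and Mmp12 subcluster, the Ly6c2 and Ccr2 subcluster, CAF-like and melanoma-like cells; bars are exact 95% Poisson intervals, which cover counting error only, and blue is Atf4wt/wt and orange Atf4D/D. The TAM-like values of the 3 Atf4wt/wt tumours, 273 to 530 CPM, lie under those of the 4 Atf4D/D tumours, and CAF-like and melanoma-like values of the hosts overlap.

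The genotype effects of 2 classes were also compared in 1 fit. The Hmox1 effect in TAM-like cells exceeded the melanoma-like effect by 1.2 on the log2 scale (SE 0.26, 95% interval 0.70 to 1.71, adjusted p = 0.00212, edgeR), where 0.331% of 11472 genes were called. The comparison was added after the values were seen, and the call was lost without Atf4wt/wt replicate 3 (0.108), Atf4wt/wt replicate 4 (0.133) or Atf4D/D replicate 1 (0.138) and with DESeq2 (0.0582). The TAM-like effect alone missed the threshold (adjusted p = 0.0564, edgeR) and had a larger SE, 0.35. The fit of 2 classes took 1 dispersion per gene for both, so its SE is not the spread between TAM-like tumours alone. With cells of few melanoma UMIs the difference was 1.31 (adjusted p = 0.00518). The mix of subclusters in the TAM-like sums, given above, enters this comparison, and its part was not tested. In CAF-like minus melanoma-like cells no member was called, where 0.272% of genes were, and the value of Hmox1 was 0.16 (-0.35 to 0.66).

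**Figure D5:**
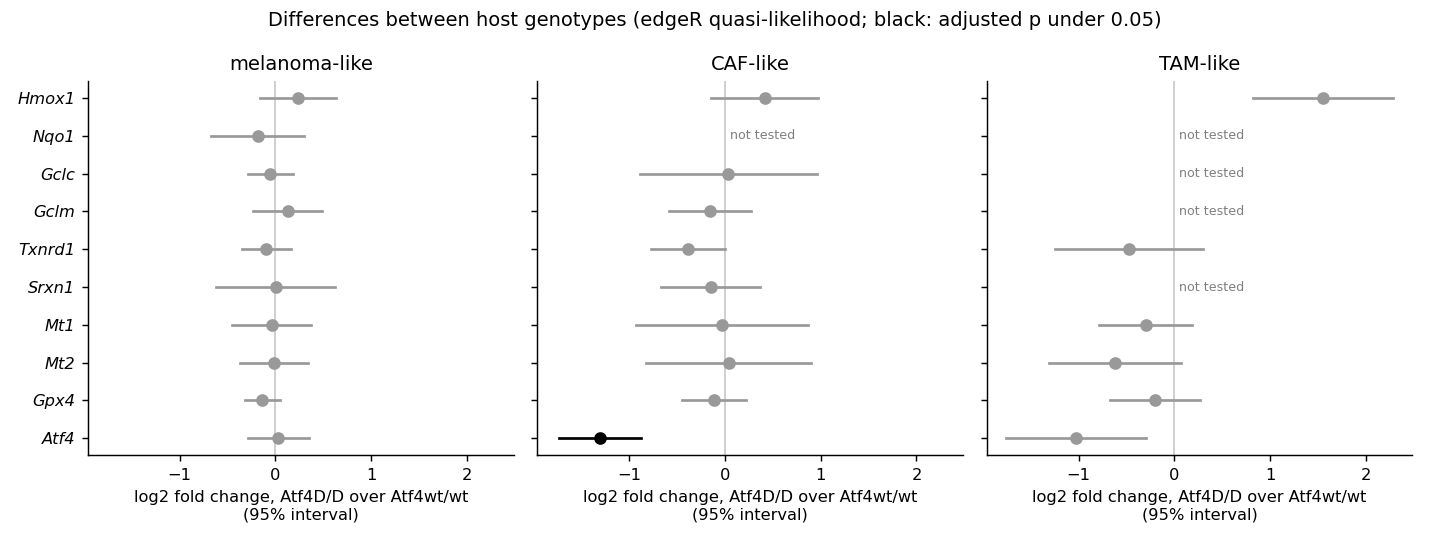
Log2 fold change of Atf4D/D over Atf4wt/wt hosts with its 95% interval (horizontal axes) for the members and Atf4 in melanoma-like, CAF-like and TAM-like cells, from edgeR; black marks an adjusted p under 0.05, grey one that is not, and genes that did not pass the filter on low counts are marked as not tested. Atf4 in CAF-like cells, at -1.30, is the only black point, and Hmox1 in TAM-like cells lies farthest right, at 1.55.

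Other genes of the pathway lists gave no genotype call beside Atf4. In TAM-like cells 28 were tested and 7 had an unadjusted p under 0.05, against 18.6% of all genes. In the haem and iron list 5 of 7 had one, 6 of 7 had a log2 fold change above 0 (48.9% of all genes did) and the median was 0.46. In TAM-like cells of few melanoma UMIs none of the 6 haem and iron genes tested had an unadjusted p under 0.05, and their median was 0.25. In CAF-like cells 3 of 46 pathway genes had an unadjusted p under 0.05, against 6.51% of all genes, and in melanoma-like cells 5 of 62, against 11.3%.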

How the data were processed

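Single-cell RNA-seq of 8 tumours was read from the UMI counts that the authors deposited per cell and gene, made with Cell Ranger 3.1.0 on GRCm38 and analysed in Seurat 3.2.1 per the submitters' processing notes; the labels and the methods name different kit versions and mouse ages. The tables are filtered by Cell Ranger's cell calling only, and no doublets were removed. UMI counts are not scaled.

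Here 28411 cells passed limits of 200 to 5000 genes and 7.5% mitochondrial UMIs, 1 cluster of 241 cells with high mitochondrial share was removed, and the rest were clustered in Seurat 5.3.0 (2000 variable genes, 20 principal components, resolution 0.7, 17 clusters; immune cells again at 0.3) with 75 genes, the members and pathway lists, left out. Clusters were named from marker lists. Counts were summed per tumour and class (at least 10 cells) and tested in edgeR 4.0.16 (quasi-likelihood, TMM, filterByExpr, Benjamini-Hochberg over all genes tested; R 4.3.3); DESeq2 1.42.0 was an alternative. The tests were checked on simulated counts with the same dispersion for every gene and class, so the check does not cover a spread that differs between classes. Class comparisons had the tumour as a block. CPM is per 1000000 UMIs of the summed cells; the SD is over tumours. Intervals on counts cover counting error only. Where nothing is detected, 3 counts set the floor.

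Replicate numbers of the labels did not pair the tumours: same-numbered tumours had deviations with r of -0.41 to -0.07. Replicates within a genotype differed beyond counting noise (chi-square per gene 10.9 to 42.6), and each library is a biological replicate by the labels. All 9 members are named, pathway genes by the largest called change in a class comparison (3 a side) or a genotype call, and like genes by the 3 highest r. The members and lists were chosen with earlier results of these data known. Promoter windows, motif letters and gene positions come from RefSeq tables (GRCm38.p6) and GENCODE M21 on the same build.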

Additional observations from a re-analysis of the deposited data

Results flagged for a closer look

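Among 62 groups of 4 tumours, each 1 gene in 1 class and genotype, examined for a tumour far from the others, 7 had one, where chance alone gives about 1 in 20. Gclc in CAF-like cells of Atf4wt/wt replicate 1 read 109 CPM, against 22.0 to 25.2 CPM in the other 3. Hmox1 in all immune cells of Atf4D/D replicate 1 read 1805 CPM, against 777 to 952 CPM in the others. Txnrd1 in TAM-like cells of Atf4D/D replicate 4 read 24.9 CPM, from 26 cells, against 127 to 143 CPM. In melanoma-like cells, Gpx4 in Atf4D/D replicate 4 read 603 CPM against 688 to 692 CPM, and Nqo1 in the same tumour read 2.87 CPM against 3.54 to 3.65 CPM. Nqo1 in TAM-like cells of Atf4D/D replicate 2 read 2.47 CPM, and in all immune cells of that tumour 2.03 CPM, with 0 in the other 3 Atf4D/D tumours; both values rest on 1 UMI.

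The genotype effect on Hmox1 was larger by 1.2 on the log2 scale in TAM-like than in melanoma-like cells (adjusted p = 0.00212, edgeR), a comparison added after the values were seen. The call held in 4 of 7 omissions of 1 tumour and was lost without Atf4wt/wt replicate 3 (0.108), Atf4wt/wt replicate 4 (0.133) or Atf4D/D replicate 1 (0.138) and with DESeq2 (0.0582). The level was higher in 4 of 4 Atf4D/D tumours than in any of the 3 Atf4wt/wt tumours in TAM-like cells, as for 7.54% of all genes tested, while in melanoma-like cells the groups overlapped. The 2 TAM-like cells of Atf4wt/wt replicate 2, too few to be tested, read 1017 CPM, within the Atf4D/D range. Tested in TAM-like cells alone, the genotype difference of Hmox1 missed the threshold (adjusted p = 0.0564, edgeR).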

How the results depend on the processing

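Of 527 values recomputed under an alternative for 48 results, 7 reversed, each of a difference that was not called. In TAM-like cells the number of members called between genotypes was 0 as reported and 1, Hmox1, with DESeq2, with no expression filter, with the replicate block (adjusted p = 0.00167) and with sex as a covariate. Leaving out 1 tumour in turn gave 0 to 1, with the call made without Atf4D/D replicate 2 (0.028) or replicate 3 (0.0488). The share of all genes called was not counted under these alternatives. The log2 fold change of Hmox1 in TAM-like cells was 1.12 to 1.76 over 17 alternatives and the adjusted p 4.06e-07 to 0.285. The replicate block changed no other member's call between genotypes, and same-numbered tumours share only a number. With Atf4wt/wt replicate 2 left out of TAM-like tests, Atf4D/D replicate 2 has no partner in that block. It then adds nothing to the genotype difference in TAM-like cells. The Mt2 value of TAM-like cells reversed to 0.11 without cells with melanoma UMIs and to 0.10 with all immune cells pooled, and the cause was not tested. Leaving out 1 tumour in turn took Atf4 in melanoma-like cells from -0.10 to 0.10 and the Hmox1 difference of effects between CAF-like and melanoma-like cells from -0.15 to 0.46. The Atf4 call in CAF-like cells was lost under 10 of 16 alternatives (log2 fold change -1.74 to -1.12, adjusted p up to 0.409), among them the replicate block (0.0612), sex as a covariate (0.0984) and the omission of any of the 4 Atf4wt/wt tumours or of Atf4D/D replicate 2 or 4.

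In TAM-like against melanoma-like cells 2 members were called, where 44% of all genes were. With no expression filter 5 were called, with no block 1, without cells with melanoma UMIs 4, and with no scaling factors 4. With 1 tumour left out 1 to 3 were called. The share of all genes called was not counted under these alternatives, so the counts do not set the members apart. The call of Mt2 was lost with no block (0.082) and without Atf4D/D replicate 2 (0.0883). In CAF-like against melanoma-like cells the Txnrd1 call was lost with relative log expression factors and without Atf4wt/wt replicate 2 (0.0844), Atf4D/D replicate 1 (0.0521) or Atf4D/D replicate 2 (0.183), that of Gclm without Atf4D/D replicate 2 (0.0539), and that of Gclc without Atf4wt/wt replicate 1. The calls of Hmox1 and Mt2 in TAM-like against CAF-like cells held under all 16 alternatives. The difference of genotype effects on Hmox1 between TAM-like and melanoma-like cells gave 1 call, 0 with DESeq2 (0.0582) and 0 to 1 with 1 tumour left out (lost without Atf4wt/wt replicate 3 or 4 or Atf4D/D replicate 1), with values of 0.98 to 1.47. Within melanoma-like clusters 0 members were called, and 4 with no expression filter, where 0.732% of all tests were called. The ratio of Mt1 between the highest and lowest cluster was 3.18, and 2.53 at the lower resolution, which gives fewer clusters. With 18 to 124 TAM-like cells a tumour, genes of few UMIs such as Nqo1, Gclc, Gclm and Srxn1 were not testable there.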

Other observations

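The 3 clusters of low UMI count that were left unnamed were used in no comparison of classes or genotypes and entered only the correlations across clusters. In the cluster of 947 cells led by Azgp1 and Malat1, Gclc read 102 CPM from 166 UMIs, against 20.04 and 31.1 CPM in the clusters of 779 and 1061 cells. Hmox1 read 170 CPM there and 123 and 90.7 CPM in the others. Mt1 went the other way, at 1072 CPM there and 2381 and 1758 CPM in the others, and so did Gpx4, at 431, 889 and 676 CPM. Txnrd1 read 197, 155 and 177 CPM in the same order. The median mitochondrial share of UMIs was 0.489% in the cluster of 947 cells, 0.162% in that of 779 and 4.92% in that of 1061. Melanoma-like clusters had medians from 4.79% in cluster 10, or 4.96% in cluster 3, up to 5.81% in cluster 6. The part of this difference in the values was not tested.

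Endothelial-like cells, 36 in all, held 5 Hmox1 UMIs (47.6 CPM), 44 Mt1 UMIs (419 CPM) and 11 Mt2 UMIs (105 CPM). Dendritic-like cells averaged 850 CPM of Mt1 and 117 CPM of Mt2 over 5 tumours with 10 or more such cells, and T/NK-like cells 413 and 132 CPM. No Srxn1 UMI was seen in the T/NK-like cells of those tumours.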
